A study of Mustela putorius furo with 8 samples.

Results

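Ferret pancreatic ductal epithelia carrying a CFTR knockout on both alleles (CF) held a small class of dividing cells that the deposited cell table names proliferating acinar. The class was taken as every retained CF cell with that name. It comprised 200 of 11345 CF cells, and of 32945 cells in the series. Of these, 154 came from the day 2 library, 40 from day 5, 4 from day 7 and 2 from day 9. All 200 belonged to 1 deposited cluster, CF cluster 24. The other 4345 retained cells of the CF day 2 library served as the comparison. The cultures were wild type (WT) or CFTR-KO pancreatic ductal cells from newborn ferrets, grown for 10 passages in a proliferation medium and then polarized at an air-liquid interface for 2, 5, 7 or 9 days. Cells of 3 donors per genotype were pooled before capture, and each genotype and day was 1 droplet library of polyadenylated RNA. Donors therefore could not be told apart, and no comparison below carries a test between conditions. Intervals are exact 95% intervals and cover counting error only.

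A cell that divides passes through S phase, when DNA is copied, and through G2 and mitosis, when the copied chromosomes are condensed, attached to the spindle and separated. Transcripts of the mitotic machinery accumulate late in the cycle and are destroyed or diluted after division, while those of the replication machinery peak earlier. Acinar cells of the pancreas make digestive enzymes, whereas ductal cells carry bicarbonate-rich fluid through CFTR.

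The 5 genes given as markers of the class were all far higher in it than in the other cells. Levels are UMIs per 1e6 UMIs of a set of cells (CPM), where a UMI is 1 counted transcript molecule. TOP2A, the topoisomerase that untangles copied chromosomes, had 1426 UMIs in the 154 day 2 members (327 CPM) against 744 UMIs in the 4345 other cells (7.59 CPM), a ratio of 43 (95% interval 39.3 to 47). MKI67, the proliferation antigen Ki-67, stood at 188 against 4.26 CPM. CCNB1, the cyclin that activates CDK1 at the entry into mitosis, stood at 145 against 2.51 CPM, the largest ratio of the 5 at 57.6 (interval 49.7 to 67.1). CDC20, which directs the anaphase-promoting complex to its targets, stood at 100.1 against 2.37 CPM. CCNA2, the cyclin of S phase and G2, stood at 79.5 against 1.96 CPM. All 5 ratios were above 40. Clusters were built from the same transcripts, so these ratios describe the class and do not test it.

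The markers were not sampled in every member at the depth of the libraries. MKI67 had at least 1 UMI in 91.6% of the members, TOP2A in 77.9%, CCNB1 in 77.3%, CCNA2 in 76.0% and CDC20 in 70.1%. Members were deeper than the rest, with a median of 25200.5 UMIs per cell against 17584, so shares were also compared after thinning each cell to 3000 UMIs, which left out 1 member and 38 other cells. After thinning, MKI67 was seen in 68 of 153 members (44.4%, interval 36.4 to 52.7) and in 33 of 4307 other cells (0.766%). CF cluster 1, named centroacinar and with a summed mitosis level among the lowest, serves as background for free RNA: MKI67 was seen in 1 of 721 thinned cells there (0.139%), and in 0.551% unthinned at a median of 13060 UMIs. Mitochondrial transcripts took a median of 6.99% of UMIs in the members and 7.04% in the other cells.

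**Figure D1:**
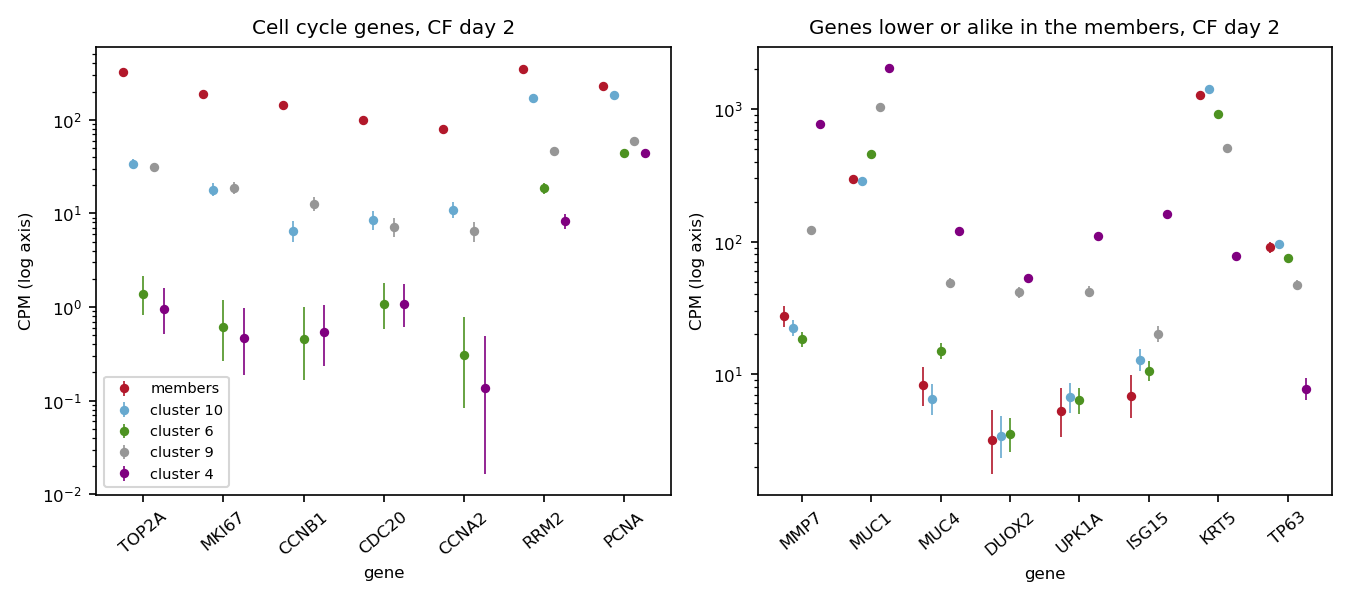
CPM of single genes (log axis) in the 154 members, in CF day 2 clusters 10, 6, 9 and 4, with exact 95% Poisson intervals that cover counting error only. Left, the 5 class markers are at least 79.5 CPM in the members and at most 34.1 CPM in any other cluster shown, while PCNA is 232 CPM in the members and 183 in cluster 10. Right, MMP7, MUC1, MUC4, DUOX2, UPK1A and ISG15 are far below cluster 4 in the members and lie near clusters 10 and 6.

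Across all genes with at least 10 CPM in either set, 372 of 7899 (4.71%) were at least 2-fold higher in the members than in the other CF day 2 cells and 127 (1.61%) were at least 2-fold lower. These counts depended on the settings: the lower count ran from 71 with 5 CPM added to 320 with all CF libraries in both sets and 425 after thinning each cell to 3000 UMIs, and the higher count was 577 after thinning. Log2 ratios were taken after adding 1 CPM, and their median over the 7899 genes was 0.06. The 15 highest were ASPM, CENPF, CCNB1, TOP2A, CCNB2, MKI67, SGO2, AURKB, CDCA3, UBE2C, CENPE, BUB1B, CDC20, PRC1 and the linker histone H1-5, with log2 ratios from 4.90 to 5.97. All but H1-5 act in G2 or mitosis. Of the 372 genes, 143 belonged to the cycle lists described next. Among the 229 that did not, several were cycle genes too, such as PCLAF, a PCNA partner, with a log2 ratio of 4.13, and the mitotic formin DIAPH3 at 4.05 (both chosen after their values were seen).

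Genes of the mitosis list were higher throughout. The list held 74 measured genes, of which 71 passed the level filter. All 71 were at least 2-fold higher, against 4.71% of all genes, with a median log2 ratio of 3.91. Their summed level was 7001 CPM in the members against 447 CPM in the other cells, a ratio of 15.7 (interval 15.4 to 15.9). The list holds the markers that go with the class name, so its direction is no separate evidence. Its lowest log2 ratio was 1.20, and it left out genes of the lists below such as BUB3 (1.06), FZR1 (0.37) and CDC16 (0.26). The count of 71 and the ratio of 15.7 hold for this choice of genes. Counts in the lists below compare with 4.71% of all genes 2-fold higher and 1.61% lower. The filter asks for 10 CPM in either set. A gene below that in the other cells was thus tested only if it reached it in the members, which favours counts of higher genes.

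Within mitosis, genes of the spindle and of cytokinesis stood furthest from the other cells, with all 27 tested genes at least 2-fold higher and a median log2 ratio of 4.04. ASPM, which focuses microtubules at the spindle poles, had 1047 UMIs in 154 members and 279 in 4345 other cells, 239.8 against 2.85 CPM. Its log2 ratio, after adding 1 CPM, was the largest of any tested gene at 5.97. Without the added CPM its ratio was 84.2 (interval 73.7 to 96.4). The spindle assembly factor TPX2 stood at 208 against 6.44 CPM, the motor KIF11 that pushes the poles apart at 144 against 6.15 CPM, and PRC1, which bundles the midzone, at 126 against 3.26 CPM. The lowest ratio of the group was that of CKAP5, a microtubule polymerase that cells also use outside mitosis, at 45.1 against 10.4 CPM.

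Cyclins and kinases that drive entry into mitosis were higher in all 16 tested genes, with a median log2 ratio of 3.72. CCNB2 stood at 102 against 1.86 CPM and CDK1, the kinase it activates, at 129 against 7.5 CPM. AURKB, the kinase that corrects faulty spindle attachments, stood at 125 against 2.56 CPM. Near the other end were CKS1B, a CDK subunit at 323 against 137 CPM, and the phosphatase CDC25B at 51.5 against 21.8 CPM. Their ratios of 2.35 and 2.36 were close to the 2-fold line.

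Kinetochore and checkpoint genes were higher in 26 of 26 tested, with a median log2 ratio of 3.58. CENPF, a kinetochore protein that builds up in G2, had 2565 UMIs in the members and 923 in the other cells, 587 against 9.42 CPM. SGO2, which guards centromeric cohesion, stood at 83.6 against 1.38 CPM, the motor CENPE at 181 against 4.96 CPM and the checkpoint kinase BUB1B at 76.0 against 1.56 CPM. BUB3, a checkpoint protein present through the cycle, had the lowest ratio at 144 against 68.8 CPM.

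Genes of mitotic exit were uneven. Of 9 tested, 5 were at least 2-fold higher and none was 2-fold lower, against 4.71% and 1.61% of all genes. The lack of lower genes is near that background. UBE2C and UBE2S, the ubiquitin-conjugating enzymes of the anaphase-promoting complex, stood at 439.9 against 12.7 CPM and 457 against 60.9 CPM. The securin PTTG1 stood at 127 against 13.7 CPM. The core subunit CDC16 stood at 37.3 against 31.0 CPM and the G1 activator FZR1 at 22.4 against 17.1 CPM, both under 2-fold.

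Chromatin and condensin genes were at least 2-fold higher in 15 of 16 tested, against 4.71% of all genes, with a median log2 ratio of 2.37. HMGB2, an abundant DNA-bending protein of dividing cells, stood at 487 against 58.7 CPM, and its relative HMGB1, made by most cells, at 1365 against 589 CPM. NCAPH2, a condensin II subunit, fell just short at a log2 ratio of 0.93. Of 6 tested tubulin and stathmin genes, 5 were at least 2-fold higher, against the same 4.71%. The microtubule destabilizer STMN1 stood at 130.3 against 9.55 CPM, TUBB at 663 against 137 CPM, and TUBB2A just under the line at 237 against 121 CPM.

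**Figure D2:**
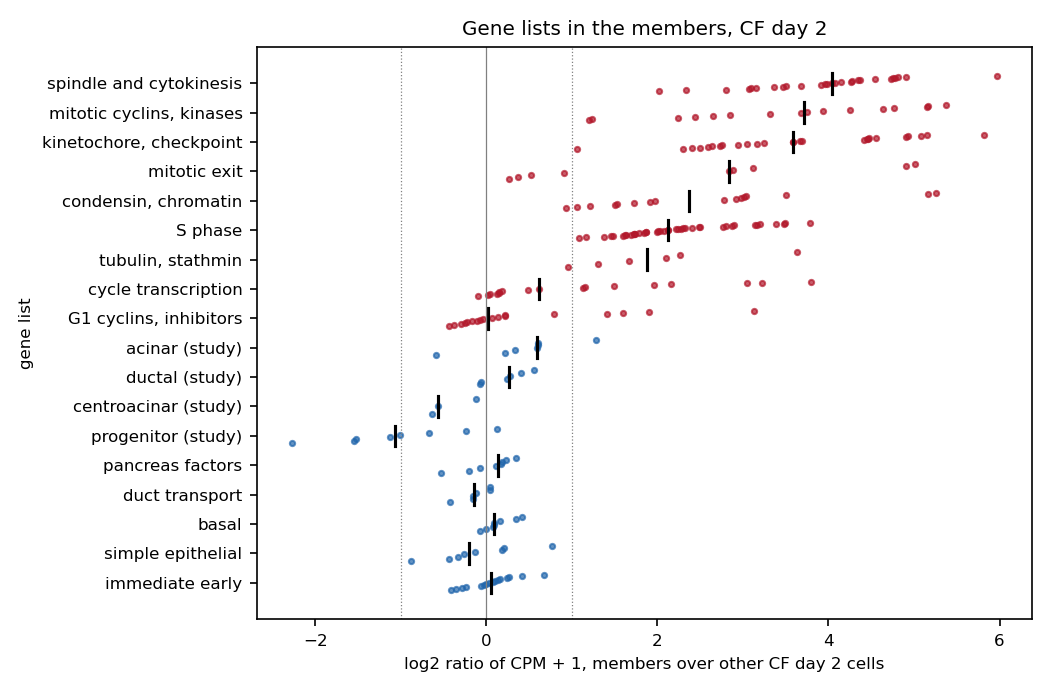
Log2 ratio of CPM + 1 between the 154 members and the other 4345 CF day 2 cells, with 1 point per gene that passed the level filter; red, cell cycle lists; blue, other lists; black bars, list medians; dotted lines, 2-fold. The mitotic lists lie to the right of the 2-fold line nearly entirely, while the ductal list (median 0.26) and the basal list (median 0.09) lie around 0 and the progenitor list lies to the left (median -1.07).

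S phase genes were higher as well, with smaller ratios. The list held 48 measured genes, of which 41 passed the level filter, some through their level in the members alone. All 41 were at least 2-fold higher, with a median log2 ratio of 2.12. The summed level of the list was 3207 against 705 CPM, a ratio of 4.55 (interval 4.47 to 4.63). RRM2, which makes deoxynucleotides, stood at 345 against 32.2 CPM, and TK1, the thymidine kinase of the salvage route, at 79.7 against 6.17 CPM. PCNA, the sliding clamp of DNA polymerase, stood at 232 against 57.0 CPM, and DUT, which keeps uracil out of DNA, at 534 against 121 CPM. ESCO2, the acetyltransferase that locks sister chromatids together, had the largest log2 ratio of the list at 3.78. The lowest among members of the list with at least 5 CPM were the origin kinase CDC7, at 8.01 against 5.36 CPM, and UNG, which removes uracil from DNA, at 5.50 against 2.07 CPM. Neither passed the level filter, and CDC7 was under 2-fold.

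Upstream regulators were mixed. Of 17 tested genes of cycle transcription, 8 were at least 2-fold higher and none 2-fold lower, against 4.71% and 1.61% of all genes. FOXM1, the activator of G2 and M genes, had a log2 ratio of 3.80, its partner MYBL2 stood at 119 against 13.5 CPM, and E2F8, a late repressor of E2F targets, at 15.8 against 0.796 CPM. RBL2, a pocket protein of resting cells, stood at 21.8 against 23.3 CPM. Of 18 tested genes of G1 cyclins and cycle inhibitors, 4 were at least 2-fold higher and none 2-fold lower, against the same shares. A count of 0 lower in lists this short is near the background of 1.61%. The median log2 ratio of the 18 genes was 0.02. The 4 higher genes were CDKN3, CDKN2D, CDKN2C and CDK2. The phosphatase CDKN3 stood at 16.7 against 1.03 CPM and the CDK4 and CDK6 inhibitor CDKN2D at 42.1 against 10.6 CPM. CDKN1A (p21), the inhibitor induced by p53, stood at 499 against 525 CPM and the G1 cyclin CCND2 at 302 against 408 CPM. Both were within 2-fold of the other cells.

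The members were not alike in their cycle content. The share of a cell's UMIs on the mitosis list ran from 0.129% to 2.55%, with a median of 0.588%. The S phase list ran from 0.0453% to 0.849% with a median of 0.315%. The deposited phase calls, made from gene scores, put 127 members in G2M, 27 in S and 0 in G1. Among the other cells, 2696 were called G1, 1156 S and 493 G2M. Free RNA and depth enter such calls, and they are given here as deposited. The 27 S members had a median mitosis share of 0.395% and a median S phase share of 0.530%. The 127 G2M members had 0.634% and 0.264%. Between these subsets CCNB1 was 21.4 CPM in S and 168 CPM in G2M, ASPM 25.7 and 281 CPM, and PCNA 476 and 186 CPM. The phase calls use some of these genes, so the contrast describes the calls. Across the 154 members the S phase share and the mitosis share had a Spearman correlation of -0.08, over cells of 1 library that differ in depth.

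**Figure D3:**
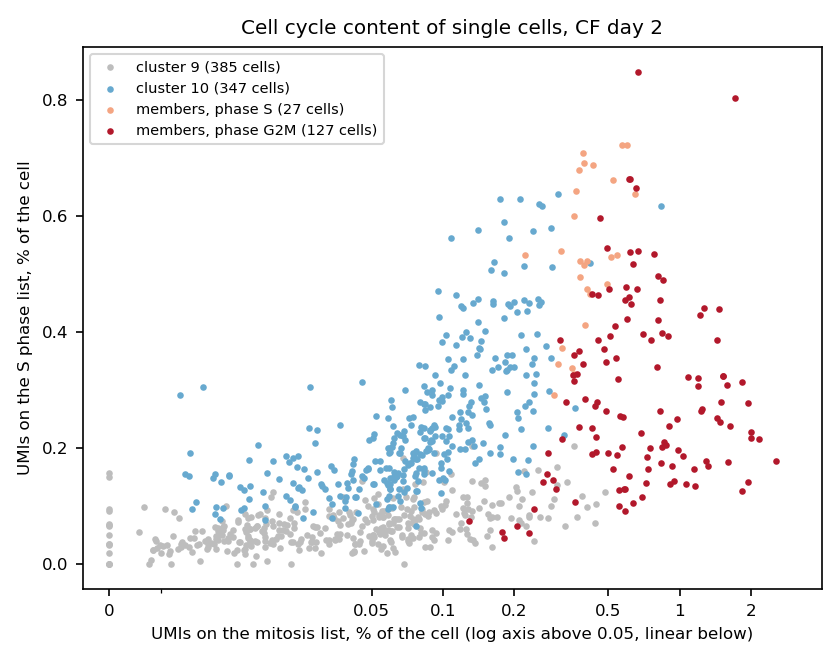
Each point is a CF day 2 cell: x, percent of its UMIs on the mitosis list (log axis above 0.05, linear below); y, percent on the S phase list. Members (red, phase G2M; orange, phase S) lie to the right with medians of 0.588% and 0.315%, cluster 10 (blue) has a median S phase share of 0.209% at a median mitosis share of 0.0833%, and cluster 9 (grey) stays low on the S phase axis, at a median of 0.0625%.

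Some cells outside the class carried the same transcripts. Of the 4345 other cells, 152 had a mitosis share at or above that of the lowest member, 94 of them in cluster 10 and 52 in cluster 9, both named ductal in the deposited table. Only 1, in cluster 10, reached the median of the members. At least 3 of the 5 markers were seen in 133 of the 154 members (86.4%) and in 127 of the other cells (2.92%), of which 57 were in cluster 10 and 60 in cluster 9. Defined by 3 markers instead of by name, dividing cells would make up 5.78% of the CF day 2 library rather than 3.42%. The cells outside were deeper, with medians of 38253 UMIs in cluster 10 and 37218 in cluster 9 against 27713 in the members with 3 markers. After thinning all cells to 3000 UMIs, 46 of 4460 cells still showed 3 markers, and 45 of the 46 were members. Most of the 153 thinned members no longer passed either. The 5 markers sum to 838 CPM in the members, 77.9 in cluster 10 and 75.9 in cluster 9. At 3000 UMIs cells of clusters 10 and 9 could thus seldom show 3 markers. The thinned count therefore cannot tell whether depth accounts for the marker-bearing cells outside the class.

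The marker-bearing cells of clusters 10 and 9 had lower mitosis genes than the members. The mitosis list without the 5 markers stood at 6935 CPM in the 133 members, 1920 CPM in the 57 cells of cluster 10 (interval 1862 to 1979) and 1862 CPM in the 60 cells of cluster 9 (interval 1806 to 1918). The S phase list stood at 3210 CPM, 3006 CPM and 1007 CPM. MUC1, a surface mucin, was 305 CPM in the members, 434 in cluster 10 and 1086 in cluster 9. In cluster 10 some other genes were close to the members: PCNA stood at 242 CPM against 231 CPM in the members, MMP7 at 33.2 against 29.4 CPM and MUC4 at 9.09 against 8.48 CPM, all with overlapping intervals. Others were apart: RRM2 stood at 251 against 347 CPM, HES1 at 425 against 525 CPM and SCGB1A1 at 10.0 against 1.99 CPM. The SCGB1A1 levels rest on 22 and 8 UMIs in all. In cluster 9 the 325 cells with fewer markers had 1023 CPM of MUC1, close to the cells with them. Deposited phases of the marker-bearing cells were S for 47 of 57 in cluster 10 and G2M for 54 of 60 in cluster 9. The study removed called doublets before the cell table was made. The part of remaining doublets in these cells was not tested.

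By cluster, the mitosis list was highest in the members at 7001 CPM, followed by cluster 10 at 1124 CPM and cluster 9 at 813 CPM. The other 9 clusters with at least 50 day 2 cells lay between 249 and 383 CPM. The S phase list gave 3207 CPM in the members, 2366 CPM in cluster 10, 737 CPM in cluster 9 and 459 to 647 CPM elsewhere. Cluster 10 thus lay between the members and those 9 clusters on both lists, nearer to the members for S phase genes than for mitosis.

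**Figure D4:**
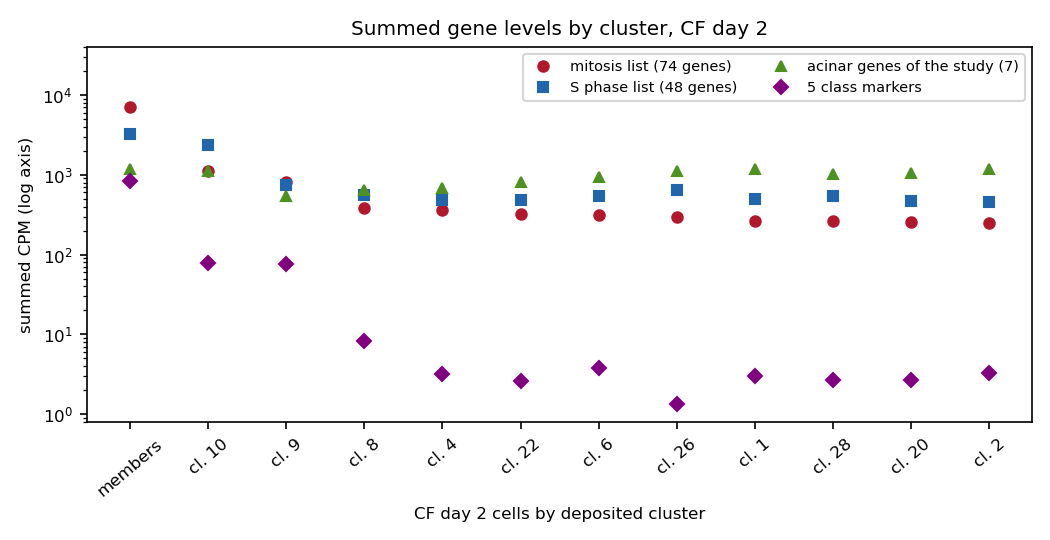
Summed CPM (log axis) of 4 gene lists in the members and in the 11 other CF day 2 clusters with at least 50 cells. The 5 markers sum to 838 CPM in the members, 77.9 in cluster 10, 75.9 in cluster 9 and under 10 CPM elsewhere, while the 7 acinar genes of the study span only 541 to 1193 CPM and are not highest in the members.

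Acinar genes were little higher in the members. Those by which the study marked acinar cells were the chaperones FKBP4 and FKBP11, the peroxidases PRDX2 and PRDX4, and ASNS, LDHA and NUPR1. The study states that earlier single-cell work had also reported them as acinar markers. Its first naming of clusters came from correlation with published pancreas data. For proliferating acinar cells it names PRDX2, PRDX4 and FKBP11, with cycle genes. The list was used to name clusters of these same samples and is therefore no independent evidence of identity. Their summed level was 1168 CPM in the members against 878 CPM in the other cells, a ratio of 1.33 (interval 1.29 to 1.37), with 1 of 7 at least 2-fold higher, against 4.71% of all genes, and a median log2 ratio of 0.59 against 0.06. The 1 gene was FKBP4, a chaperone partner of HSP90, at 92.1 against 37.3 CPM. PRDX4, a peroxidase of the endoplasmic reticulum, stood at 134 against 87.5 CPM, FKBP11 at 59.5 against 50.9 CPM, LDHA, lactate dehydrogenase, at 762 against 605 CPM, and the stress protein NUPR1 at 20.8 against 31.8 CPM. LDHA alone thus made up most of the summed level in both sets. Cluster 2, named ductal, had 1193 CPM over the 7 genes, cluster 1, named centroacinar, had 1181 CPM and cluster 10, named ductal, 1122 CPM, all near the 1168 CPM of the members.

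Digestive enzymes were all but absent. Of 19 genes of enzymes and acinar transcription factors, 11 could be analysed here and 10 of those had 0 UMIs in the 154 members, including the carboxypeptidase CPB1 and the elastase CELA1. A count of 0 here allows up to 0.687 CPM. The exception was CLPS, colipase, at 17.4 CPM in the members and 18.3 CPM in the other cells, with 76 and 1796 UMIs. Of the 11 genes, 5 had 0 UMIs in the whole CF day 2 library. All 11 together had 1820 UMIs in the other cells, nearly all of CLPS. The counts of 0 in the members therefore say little about how they differ from the other cells. The study itself reports that prominent acinar markers such as AMY2B were lacking. These data thus carry no acinar enzyme that separates the members from their neighbours.

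Ductal genes of the study summed to 11995 CPM in the members and 10435 CPM in the other cells, a ratio of 1.15 (interval 1.14 to 1.16), with a median log2 ratio of 0.26. None of the 6 was 2-fold higher or lower. With 4.71% of all genes 2-fold higher and 1.61% lower, a count of 0 in this or the other short lists of the paragraph is near the background and sets none of them apart. KRT19, the duct keratin, stood at 6005 against 5073 CPM, KRT5, a keratin of basal cells that the study counts as ductal, at 1279.6 against 869.9 CPM, and KRT15 at 16.5 against 17.5 CPM. Basal genes gave 0 of 8 beyond 2-fold, with TP63, the basal transcription factor, at 90.5 against 71.2 CPM. Duct transporters gave 0 of 6, with the chloride channel ANO1 at 72.8 against 70.5 CPM and the pump subunit ATP1B1 at 312 against 419 CPM. Immediate early genes, which rise when tissue is dissociated, gave 0 of 16 with a median log2 ratio of 0.05. Simple epithelial genes gave 0 of 8, and KRT18 was the highest of them at 442 against 259.8 CPM.

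Progenitor genes were mostly lower than in the pooled other cells, but not than in most clusters. Of 5 centroacinar genes measured, 3 passed the filter and none of the 3 was 2-fold lower. PROM1, which did not pass, had 1 UMI in the members, 0.229 against 1.81 CPM, a ratio of 0.127 (interval 0.00319 to 0.715). S100A6, a calcium-binding protein, stood at 15795 against 23404 CPM. Of 8 progenitor genes tested, 5 were at least 2-fold lower and none 2-fold higher, against 1.61% and 4.71% of all genes, with a median log2 ratio of -1.07. The list summed to 644 CPM in the members, above 6 of the 11 other clusters shown, which held 302 to 625 CPM, and below clusters 6, 9, 22, 8 and 4, which held 940.2 to 3229 CPM. Over cluster 10 its ratio was 1.03 (interval 0.984 to 1.08). The surface mucin MUC1 had 1291 UMIs in the members and 84935 in the other cells, 296 against 867 CPM. MUC4, another membrane mucin, stood at 8.24 against 43.5 CPM and ALDH1A1, the retinaldehyde dehydrogenase, at 57.7 against 117 CPM. KLF4 had the highest ratio of the list at 32.1 against 29.3 CPM.

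The lowest set held genes of varied function. The matrix protease MMP7 had 119 UMIs in the members and 18359 in the other cells, 27.3 against 187 CPM, a ratio of 0.145 (interval 0.12 to 0.174). UPK1A, a plaque protein of surface urothelium, stood at 5.27 against 34.2 CPM, and DUOX2, the oxidase that makes hydrogen peroxide at apical membranes, at 3.21 against 21.3 CPM, with its maturation factor DUOXA2 at 7.79 against 38.1 CPM. Also among the 15 lowest were CUNH15orf48, RETNLB, ENPP3, GLRX, the secretoglobin SCGB1A1 and 4 genes known only by locus names. The lowest of all, LOC101676065, had 8 UMIs in the members and 2710 in the other cells. ISG15, an interferon-induced ubiquitin-like protein, stood at 6.87 against 43.3 CPM, and of further interferon genes, chosen after their values were seen, MX2 stood at 6.41 against 25.8 CPM and IFIT3 at 4.58 against 15 CPM.

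Levels of these genes varied widely among the other clusters. MMP7 was 771 CPM in cluster 4, 123 in cluster 9, 22.4 in cluster 10, 18.3 in cluster 6 and 4.21 in cluster 1, around the 27.3 CPM of the members. MUC1 was 2048 CPM in cluster 4, 462 in cluster 6, 286 in cluster 10 and 78.5 in cluster 1, with the members at 296. ISG15 was 161 CPM in cluster 4 and 10.6 to 20.1 CPM in clusters 6, 1, 10 and 9, so the members at 6.87 CPM ranked 11 of 12 clusters.

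Set against cluster 10 alone, the members had almost nothing lower. Of 7804 genes tested, 194 (2.49%) were at least 2-fold higher in the members, 91 of them on the cycle lists, and 5 (0.0641%) were at least 2-fold lower. Among them were LOC101679442, UNG, LTB and NEURL2. UNG, a gene of the G1 to S boundary, stood at 5.50 CPM in the members and 14.8 in cluster 10. LTB, lymphotoxin beta, stood at 6.64 and 15.3 CPM. The 5 highest were ASPM, CCNB1, SGO2, CENPF and CDCA3, with ASPM at 239.8 against 4.83 CPM, a log2 ratio of 5.37. The S phase list was higher in the members by a ratio of 1.36 (interval 1.33 to 1.38), far less than the mitosis list at 6.23 (6.09 to 6.37). Its genes were uneven. ESCO2 stood at 51.5 CPM in the members and 14.5 in cluster 10, DUT at 534 and 225 CPM and RRM2 at 345 and 171 CPM, while the helicase subunits MCM3 and MCM2 stood at 86.6 and 86.1 CPM and at 22.2 and 29.1 CPM. KRT5 stood at 1279.6 and 1422 CPM, and MUC1 at 296 and 286 CPM. Against the other 10 clusters with at least 50 cells, between 35 and 657 genes were at least 2-fold lower in the members, the fewest for cluster 6 and the most for cluster 4.

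With cycle genes left out, 7657 of 8639 genes remained, a cut that took more genes than the cycle lists hold. Over these, the log2 CPM profile of the members correlated most with cluster 10 (Pearson r = 0.991) and next with cluster 6 (r = 0.984). The lowest was cluster 4 (r = 0.913). Over all 8639 genes the values were 0.973, 0.919 and 0.840 in the same order, so r depends on the cut. All are across genes of 1 library. Each member was also assigned to the nearest of 9 clusters without strong S phase content. These had at least 100 day 2 cells, so cluster 26 with 52 cells was not among them. The assignment used 500 genes, after 1549 genes had been left out with a fold setting of 1.5. That cut, meant for cycle genes, also took more genes than the cycle lists hold, and the assignments hold for this choice. Held-out cells of these clusters went to their own cluster in 81.5% of 1940 cases, with 46.8% for cluster 20, 67.6% for cluster 8 and 82.3% to 91.4% for the other 7. Of the 154 members, 55 (35.7%) fell to cluster 6, named ductal, 30 (19.5%) to cluster 1, 29 (18.8%) to cluster 28, both named centroacinar, and 23 (14.9%) to cluster 2, named ductal. Cluster 22 drew 9, cluster 8 drew 5 and cluster 20 drew 3, while clusters 4 and 9 drew 0 (exact interval up to 2.37%). Cells of cluster 10 spread over much the same clusters, with 35.7% in cluster 1, 26.2% in cluster 6 and 14.1% in cluster 28.

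The 4 larger subsets of members all had high mitosis genes, at unequal levels. The mitosis list ran from 6264 CPM in those nearest cluster 28 to 9041 CPM in those nearest cluster 1, and TOP2A from 227 CPM (interval 196 to 262) to 444 CPM (392 to 501) in the same subsets. CCNB1 ranged from 134 CPM in the 55 members nearest cluster 6 to 201 CPM in the 23 nearest cluster 2. MUC1 was 287 CPM in those nearest cluster 6, 150 CPM nearest cluster 2, 53.8 CPM nearest cluster 28 and 43.9 CPM nearest cluster 1. KRT5 was 2033 CPM nearest cluster 28 and 1105 CPM nearest cluster 6. Genes such as these helped choose the subsets, so their differences are a description.

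Of the pancreas factors 8 passed the level filter and 0 were 2-fold apart from the other cells, which is near the background of 4.71% and 1.61%. PDX1, the master factor of pancreatic development, had 25 UMIs in the members and 320 in the other cells, 5.72 against 3.27 CPM, a ratio of 1.75 (interval 1.12 to 2.63). Over cluster 10 the ratio was 2.08 (1.15 to 3.78). It was too low to pass the level filter. It was seen in 21 of 154 members (13.6%) and 6.63% of the other cells, and after thinning in 4 of 153 (2.61%, interval 0.717 to 6.56) and 1.32%, too few cells to compare. CFTR transcripts were counted in 12 UMIs of the members, 2.75 against 2.49 CPM. The counts do not show whether those transcripts encode a protein. SOX9, a duct and progenitor factor, stood at 5.72 against 6.01 CPM, PAX6, an endocrine and eye factor, at 106 against 83 CPM and the Notch target HES1 at 532 against 472 CPM. SOX2 had 0 UMIs in the members and 1 in the other cells. SOX4, a progenitor factor, stood at 319.9 against 463 CPM.

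Markers of other cell types did not travel with the class. The 6 endocrine genes, INS, GCG and SST among them, had 0 UMIs in the members. The 4 endothelial genes had 1 UMI in all and the 8 fibroblast genes 5. The 6 immune genes had 70, of which 68 were CD68, at 15.6 against 21.2 CPM, and PTPRC and CD3E were at 0. Of the members' 154 barcodes, 1 also occurred among retained WT day 2 cells and 1 among retained WT day 9 cells.

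The share of the class was lower in each later CF library. It was 3.42% of 4499 retained cells at day 2 (interval 2.91 to 4), 1.45% of 2750 at day 5 (1.04 to 1.98), 0.249% of 1607 at day 7 and 0.0804% of 2489 at day 9. The intervals of days 2 and 5 do not overlap each other or those of the later days, but each day was 1 library. By 3 or more markers the CF shares were 5.78%, 2.44%, 0.249% and 0.121%. The 6 members of days 7 and 9 were too few to describe further.

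**Figure D5:**
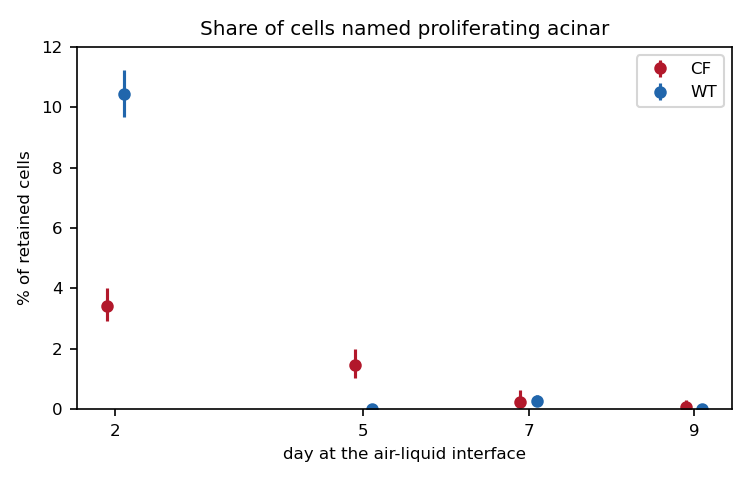
Percent of retained cells named proliferating acinar, by day at the air-liquid interface, in CF (red) and WT (blue) libraries, 1 library per point, with exact 95% binomial intervals. CF runs from 3.42% at day 2 to 0.0804% at day 9, and WT from 10.4% at day 2 through 0 of 5326 cells at day 5 and 0.259% at day 7 to 0.0185% at day 9.

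The 40 members of day 5 also had high cycle genes, at a greater depth, with a median of 34281.5 UMIs. Against the other day 5 cells, 542 of 8174 genes (6.63%) were at least 2-fold higher and 361 (4.42%) at least 2-fold lower. Of the 372 genes higher at day 2, 350 were also 2-fold higher at day 5, which is 94.1% of the day 2 list and 64.6% of the day 5 list. Of the 127 lower at day 2, 96 were also lower at day 5, 75.6% and 26.6%. Members of both days belong to the same deposited cluster, built from these transcripts, so the overlap describes the class and does not test it. The day 5 members were in 38 of 40 cases marked by at least 3 of the 5 markers, and 32 were called G2M and 8 S. TOP2A stood at 423 against 4.92 CPM, CCNB1 at 181 against 0.830 CPM and ASPM at 224 against 1.23 CPM. The mitosis list summed to 7923 CPM in the members and 294 CPM in the other day 5 cells, a ratio of 26.9 (interval 26.3 to 27.6), which exceeds the day 2 ratio while the members' own levels were 7001 and 7923 CPM. The S phase list stood at 3396 against 504 CPM. MMP7 stood at 10.9 against 279 CPM and SPARC, a matrix protein, at 3.85 against 97.5 CPM.

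WT cultures held a larger share of cells with this name at day 2, but not at days 5 and 9. The study first named clusters of WT and CF cells separately, so the classes share a name. At day 2, 650 of 6224 WT cells (10.4%, interval 9.69 to 11.2) were so named, in WT clusters 25 and 28. Over all days, 298 WT cells and 0 CF cells were named proliferating ductal. By 3 or more markers WT day 2 gave 10.9% and CF 5.78%, and after thinning to 3000 UMIs 2.43% (interval 2.06 to 2.84) and 1.03% (0.756 to 1.37). Genotype, donors and library cannot be told apart in this comparison. In WT the name was given to 12 of 4634 cells at day 7 (0.259%, interval 0.134 to 0.452) and to 1 of 5416 at day 9. At day 5 no WT cell carried it (exact interval up to 0.0692%), although 303 of 5326 WT cells (5.69%) held at least 3 markers, 171 of them in the proliferating ductal class. The name proliferating acinar thus does not count all marker-bearing cells in either genotype.

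Against the other WT day 2 cells, 333 of 7868 genes (4.23%) were at least 2-fold higher in the WT class and 151 (1.92%) at least 2-fold lower. Of the 372 genes higher in CF, 307 were also higher in WT, 82.5% of the CF list and 92.2% of the WT list. Of the 127 lower in CF, 58 were also lower in WT, 45.7% and 38.4%. The study gave the name by cycle genes among others, so shared higher genes are a description here too. The mitosis list stood at 7001 CPM in CF and 6515 CPM in WT, and the S phase list at 3207 and 3729 CPM. TOP2A stood at 327 and 283 CPM, CCNB1 at 145 and 143 CPM and MKI67 at 188 and 176 CPM. Some cycle genes were lower in CF: H1-5 stood at 116 and 167 CPM, the motor KIF18A at 21.3 and 38.2 CPM, CDC7 at 8.01 and 15.4 CPM and UNG at 5.50 and 10.6 CPM (chosen for their difference). The ratio of mitosis genes to the other cells was 15.7 in CF and 11.0 in WT, where the other cells had 447 and 590.2 CPM.

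Compared directly at day 2, CF members were at least 2-fold above WT members for 379 of 8047 genes (4.71%) and at least 2-fold below for 281 (3.49%). The 5 highest were ECRG4, LOC123386996, LOC101674231, LOC101672794 and TSPAN15, and the 5 lowest were SOX2, RAB34, LOC101675320, RSPH4A and TCAF1. Those with a gene name are not cycle genes, and those known only by locus names could not be judged. ECRG4, a secreted peptide precursor, stood at 1796 CPM in CF members and 0.832 CPM in WT members, and in the other cells at 1540.4 and 17.1 CPM. SOX2, a stem cell factor, stood at 0 CPM in CF and 175 CPM in WT members, and at 0.0102 and 105 CPM in the other cells. PAX6 stood at 106 CPM in CF and 5.83 CPM in WT members, and at 83 and 22 CPM in the other cells. PDX1 had 0 UMIs in the 650 WT members, which allows up to 0.192 CPM, against 5.72 CPM in CF members. For each of these genes the other cells differed in the same direction as the class.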

How the data were processed

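The 8 droplet libraries (10x Genomics) of ferret pancreatic ductal epithelia were analysed, 1 per genotype and day. Per the submitters' processing notes, the authors used Cell Ranger 5.0.1 and R 4.1.2 with Seurat. Barcodes below 200 genes or above 20% mitochondrial reads were dropped by the authors, as were DoubletFinder doublets. The deposited matrices hold counts (UMIs per gene and barcode, not normalized). The deposited cell table gives cluster and class names, UMI totals, percent mitochondrial reads and cell cycle scores; each class name, percent and score was used as the authors deposited it.

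UMIs were summed over the cells of a set and scaled to CPM, with 1 CPM added before log2 and a minimum of 10 CPM in either set. With 1 library per group no test was run. Intervals were Poisson for levels, conditional binomial for ratios and Clopper-Pearson for shares, at 95%. A count of 0 was bounded by 3 counts. Thinning to 3000 UMIs drew molecules without replacement. Retained libraries held 34735952 to 114585136 UMIs; the members held 4366902 and the other CF day 2 cells 97961687. The code was tested on simulated data. Software was Python 3.11.15, numpy 2.4.6, scipy 1.17.1 and R 4.3.3, with edgeR 4.0.16 and DESeq2 1.42.0 only for alternative scaling.

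Genes named were the 5 markers, 6 regulators, the 15 highest and 15 lowest log2 ratios, in each list the 4 of highest level and the 2 highest and 2 lowest ratios, and the 5 highest and 5 lowest against WT. CCNB1, TOP2A and others of the 15 highest count under more than 1 part of this rule. Names from the comparison with cluster 10, and those so marked, were added after their values were seen. The class and the gene lists were chosen with earlier results of these data known. Of 27912 gene names in the matrices, 27467 matched the RefSeq table of assembly ASM1176430v1.1, which places the genes named here on no numbered chromosome. Some genes that the rule or a count would name are not reported here.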

Additional observations from a re-analysis of the deposited data

How the results depend on the processing

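The share of the class at day 2 was 5.78% when cells were defined by 3 of the 5 markers and 2.82% of all deposited barcodes. The count of higher genes lay between 322 and 503 except after thinning to 3000 UMIs, where it was 577. The count of lower genes was 84 against ductal cells only, 320 with all CF libraries, 244 with a minimum of 1 CPM, 244 with no CPM minimum but at least 30 UMIs, 71 with 5 CPM added and 425 after thinning, which leaves about 3000 UMIs per cell. The ratio of mitosis genes was 15.1 with TMM and 15.2 with DESeq2 scaling, 13.7 against ductal cells, 18.6 as a mean over cells, 21.9 with all CF libraries, 21.9 without clusters 9 and 10 in the comparison and 18.2 after thinning. The ratio of S phase genes was 4.39, 4.41, 3.95, 5.03, 5.70, 6.31 and 5.03 in the same order. The ratio of acinar genes of the study was 1.29 with TMM, 1.29 with DESeq2 scaling, 1.62 with all CF libraries and 1.39 after thinning. Against ductal cells only, SPARC turned to a log2 ratio of 0.46 and COL1A1 to 0.48, from 8 and 2 UMIs in the members. Of the 112 named genes beyond 2-fold, between 0 and 11 fell under 2-fold in any alternative. Leaving out clusters 9 and 10, and thinning, were chosen after seeing the data. No CF cell was named proliferating ductal and the class is 1 cluster, so those exclusions were not run. The causes of these shifts were not tested. No paired analysis was possible because each group is 1 library. Counting error is small for abundant genes, and the spread between cultures and donors was not measured.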
